A study of Mus musculus with 4 samples.

Results

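Collagens, laminins, integrins and small matrix proteoglycans were followed in spinal cord of mice with adoptive-transfer experimental autoimmune encephalomyelitis (AT-EAE), in which T cells primed against myelin are transferred to recipients to model multiple sclerosis, and in control cord. A gene belonged to the set if its symbol in the probe table of the array platform named a collagen chain, a laminin chain, a fibulin, a fibrillin, a nidogen or an integrin, or if it was Dcn, Fmod, Lum, Bgn, Fn1 or Sparc. The rule found 62 of the 10225 genes on the arrays, represented by 125 cDNA spots. They comprised 9 fibrillar collagens, 15 basement membrane genes, 16 integrin subunits, 4 small proteoglycans, 4 glycoprotein genes (Fn1, Fbn2, Fbln7 and Sparc) and 12 other collagens. Another 2 genes, Itgb1bp1 and Itgb3bp, matched by symbol alone, since they encode proteins that bind integrins. Of the 62 genes, 28 had 1 spot, 16 had 2 and 18 had 3 or more.

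All mice were adult SJL/J females, with AT-EAE in one group and without it in the other. Cords of 2 mice were pooled for each RNA extract, and on each 2-colour array 2 extracts of the same group were set against each other. There were 4 arrays, 2 of AT-EAE cord and 2 of control cord. Extracts 1 and 2 of a group shared its array 1, and extracts 3 and 4 shared its array 2. A deposited value is therefore a log ratio between a pair of pools of 1 group, and says nothing of whether a gene's level was higher in AT-EAE cord or in control cord. The sources used here do not give the base of the logarithm, which was taken as 2. They do not settle which extract stands on top either. Above and below therefore place genes on 1 array, and a sign cannot be carried to another array, while the size of a ratio can. From every ratio below, the median of its array has been subtracted.

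The extracellular matrix has parts with different makers and places. Fibrillar collagens form the fibres of connective tissue, which in the cord lie mainly in the meninges and around larger vessels, and small leucine-rich proteoglycans such as decorin bind those fibres and govern their spacing. Laminins, collagen IV and nidogens build the basement membranes under blood vessel endothelium and at the glial border, which leukocytes cross on their way into the cord. Integrins are receptors made of an alpha and a beta subunit that attach cells to these proteins, and leukocytes use some of them to adhere and migrate. In bulk cord, more cells of a type and more RNA per cell cannot be told apart.

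Over the whole series, 72.4% and 54.9% of genes had a value on AT-EAE arrays 1 and 2, against 86.2% and 80.1% on control arrays 1 and 2. The spread of ratios over genes, as a standard deviation from the median absolute deviation (MAD), was 0.17 and 0.33 on AT-EAE arrays 1 and 2, against 0.18 and 0.23 on control arrays 1 and 2. AT-EAE array 2 thus had both the fewest values and the widest ratios. Of the 9 markers of neurons, astrocytes and oligodendrocytes chosen to check the tissue, 4 were on the array (Mbp, Slc1a2, Nefl and Syt1). All 4 had values on AT-EAE array 1 and both control arrays, and Mbp and Nefl had values on AT-EAE array 2. On control array 2, Slc1a2 was at -0.90 and Syt1 at -0.60 relative to the array median. These were 2 of 4 cord markers at least 0.5 below it, beside 4.51% of all genes there.

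The first comparison asked which matrix and integrin genes had a value at all, a value being what remained after the authors' own treatment of spots. A value was present for 43 and 36 of the 62 genes on AT-EAE arrays 1 and 2, against 49 and 43 on control arrays 1 and 2. The share was 63.7% ± 7.98 in AT-EAE and 74.2% ± 6.84 in control (SD, n = 2 arrays each), a difference of -10.5 percentage points. AT-EAE array 1 and control array 2 had the same share, 69.4%, so the groups were not fully apart (2-sided exact permutation p = 0.667, where 4 arrays cannot give a p below 0.333). Over all genes, the share was 63.6% ± 12.3 in AT-EAE and 83.2% ± 4.36 in control (SD, n = 2 arrays each). Relative to all genes, the set stood at 0.072 ± 4.34 percentage points in AT-EAE and at -8.96 ± 2.48 in control (SD, n = 2 arrays each). Both AT-EAE arrays lay above both control arrays in this measure. The difference of 9.03 percentage points had a 2-sided exact permutation p = 0.333, the smallest that 4 arrays can give, and so did not pass a test.

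**Figure D1:**
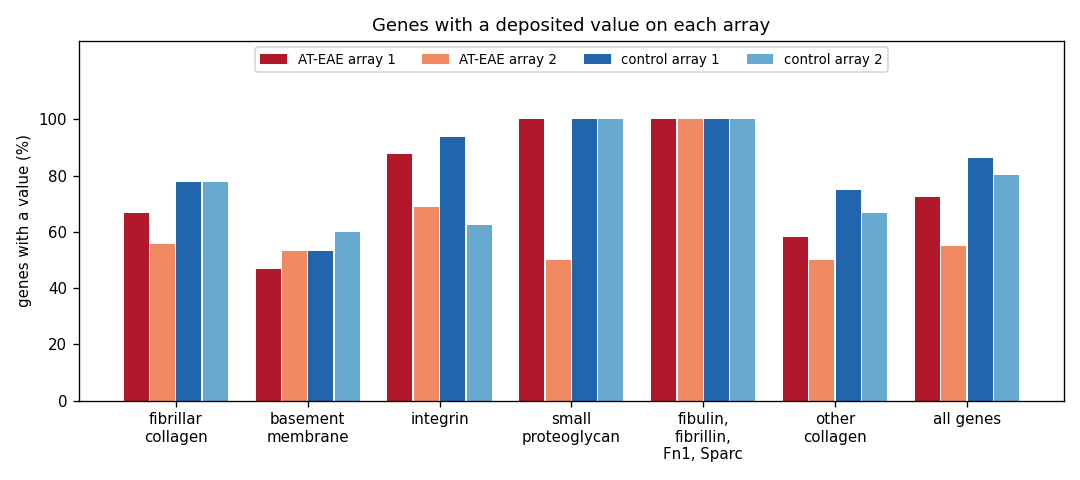
Share of genes with a deposited value (percent, y axis) on each array, for 6 classes of matrix and integrin genes and for all genes, with 1 bar per array. All 4 glycoprotein genes had values everywhere, while basement membrane genes lay between 46.7% and 60.0% on every array.

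By class, the shares with a value were as follows. Fn1, the fibronectin gene, Sparc, which encodes a collagen-binding protein of vessels and glia, Fbn2 and Fbln7 had values on all 4 arrays. All 4 small proteoglycan genes had values on AT-EAE array 1, and Lum and Bgn did on AT-EAE array 2, against all 4 on both control arrays. Basement membrane genes had values in 46.7% and 53.3% of cases on AT-EAE arrays 1 and 2, against 53.3% and 60.0% on control arrays 1 and 2. For integrin subunits the shares were 87.5% and 68.8% on AT-EAE arrays 1 and 2, against 93.8% and 62.5% on control arrays 1 and 2.

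Lama4, the laminin alpha chain of endothelial basement membranes, was the 1 gene of the set with a value on both AT-EAE arrays and on neither control array. Over all genes, 13 of 10225 had this pattern (0.127%). The Lama4 ratios were 0.04 and 0.01, close to the array median, and rest on a single spot. In the opposite pattern, with a value on both control arrays and on neither AT-EAE array, were Col23a1, Col27a1 and Itgb1bp1, 3 of the 62 genes against 9.14% of all genes. A further 11 genes had no value on any array, among them Col1a1, the major fibrillar collagen of connective tissue, the basement membrane genes Col15a1, Col18a1, Lama1, Lama3 and Nid2, and Itga11. The others were Col11a2, Col12a1, Col6a5 and Col6a6. Values on all 4 arrays were present for 31 genes.

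The second comparison asked how far the matrix genes differed between 2 pools of the same group. A pair of fibrillar collagen genes, Col3a1 and Col5a3, differed at least 0.5 on the log2 scale from the array median on both AT-EAE arrays, a 1.41-fold difference if the base was 2. No gene of the set did so on both control arrays. Of the 34 genes of the set with values on both AT-EAE arrays, these 2 passed, beside 57 of 5525 genes overall (1.03%). On both control arrays, 0 of 42 genes of the set passed, beside 24 of 8081 genes overall (0.297%). At a difference of at least 1, neither gene passed on both AT-EAE arrays.

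Col3a1 encodes the chain of type III collagen, the fibrillar collagen of vessel walls and loose connective tissue. Its ratios were -0.73 and 1.02 on AT-EAE arrays 1 and 2, against -0.25 and -0.09 on control arrays 1 and 2. The gene was far from the array median on both AT-EAE arrays and nearer to it on both control arrays, and the sizes in the groups did not overlap. This follows in part from how the gene was singled out, by its size on both AT-EAE arrays. The share of all genes whose sizes do not overlap was not counted, so the separation is only a description. As folds, if the base was 2, the AT-EAE differences were 1.66 and 2.03. Of measured genes, 1.08% lay as far from the median on AT-EAE array 1 and 0.944% did so on AT-EAE array 2. Col3a1 had 4 spots, from different cDNA clones, of which 3 had values on every array. On AT-EAE array 1 those 3 spots gave -0.60, -0.76 and -0.83, and their values on AT-EAE array 2 were 0.95, 1.09 and 1.03. The same spots gave -0.14, -0.20 and -0.42 on control array 1, and -0.12, -0.15 and -0.0032 on control array 2. The SD between these spots was 0.12 and 0.068 on AT-EAE arrays 1 and 2, against 0.15 and 0.077 on control arrays 1 and 2, so that both AT-EAE ratios were several times larger than the disagreement between clones. That disagreement covers the spotting and hybridisation of 1 array and not the difference between further pools.

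Col5a3 encodes a minor chain of type V collagen, which helps to start and limit the growth of collagen fibrils. It stood at 1.08 and 0.98 on AT-EAE arrays 1 and 2, against -0.04 and 0.42 on control arrays 1 and 2. Both AT-EAE sizes were above both control sizes, which again follows in part from how the gene was singled out. Of measured genes, 0.257% and 1.23% lay as far from the median on AT-EAE arrays 1 and 2. A single spot carried these values, so no spread between spots can be given. Col5a3 lay on the other side of the median from Col3a1 on AT-EAE array 1 and on the same side on AT-EAE array 2.

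The sequences just upstream of Col3a1 and Col5a3 are shown because these were the genes of the set that passed 0.5 on both AT-EAE arrays. Each run holds the 120 bases before the annotated start, 5′ to 3′ on the strand of the gene, from RefSeq on GRCm38.p6, with Col3a1 at chr1:45311418-45311537 on the plus strand and Col5a3 at chr9:20815068-20815187 on the minus strand. Capitals mark the letters of a TATA box (TATAAA) or a GC box (GGGCGG), searched on both strands at any distance from the start.
Col3a1: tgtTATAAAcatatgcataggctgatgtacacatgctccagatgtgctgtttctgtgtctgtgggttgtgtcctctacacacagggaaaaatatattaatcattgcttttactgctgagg
Col5a3: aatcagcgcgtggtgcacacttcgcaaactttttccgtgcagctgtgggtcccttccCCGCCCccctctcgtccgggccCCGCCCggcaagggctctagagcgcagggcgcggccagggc

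The Col3a1 window held the TATA box letters at 1 place, close to the end of the window furthest from the annotated start. The match is therefore not evidence of a working TATA box. The Col5a3 window held the GC box letters at 2 places on the opposite strand. The other motif searched, the CCAAT box (CCAAT), was in neither window, and no motif overlapped another. Of the 62 genes, 40 matched the promoter table, with 43 windows. The TATA box letters were in 1 of these 43 windows and in 6.34% of all 32851 windows of the same length. GC boxes were in 19 of the 43 windows and in 26.5% of all windows, and CCAAT boxes were in 7 of the 43 and in 21.3% of all. These matches describe letters in the window.

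The remaining fibrillar collagens lay closer to the median than Col3a1 and Col5a3 on the AT-EAE arrays, but not throughout on the control arrays. Col1a2, a chain of type I collagen, the main collagen of meningeal fibres, was at -0.14 and 0.35 on AT-EAE arrays 1 and 2, against -0.02 and -0.06 on control arrays 1 and 2. Its 2 spots disagreed on AT-EAE array 2, at -0.18 and 0.89, so that the mean there was smaller than the SD between spots of 0.76, and they also lay on different sides of the median on both control arrays. Col5a2, another type V chain, was at -0.11 and -0.52 on AT-EAE arrays 1 and 2, against -0.14 and -0.59 on control arrays 1 and 2. It passed 0.5 on array 2 of either group, where 13.5% of genes in AT-EAE and 3.32% in control lay as far from the median, and its sizes in the groups overlapped. The value on AT-EAE array 2 came from 1 spot, while the 3 spots on control array 2 gave -0.75, -0.55 and -0.46. Col11a1, a chain of type XI collagen best known from cartilage, was at -0.05 and 0.21 on AT-EAE arrays 1 and 2, against 0.09 and -0.39 on control arrays 1 and 2, and its 2 spots lay on different sides of the median wherever both had values. Col2a1, the cartilage collagen, was at 0.07 on AT-EAE array 1, against 0.02 and -0.02 on control arrays 1 and 2, and had no value on AT-EAE array 2. Col27a1, measured in control cord alone, was at 0.04 and 0.28.

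**Figure D2:**
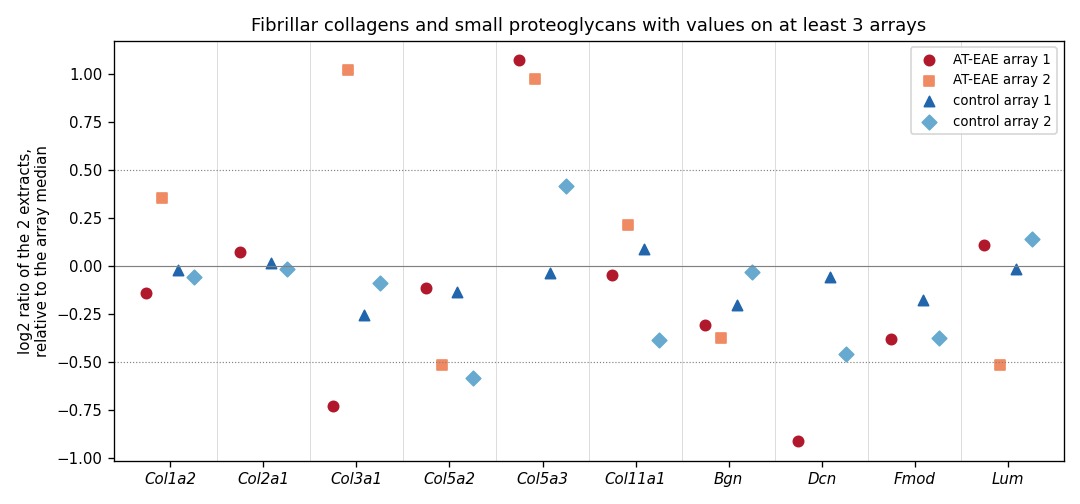
Log2 ratio between the 2 extracts of each array, relative to the array median (y axis), for fibrillar collagens and small proteoglycans with values on at least 3 arrays, with 1 point per array and dotted lines at 0.5 and -0.5. Col3a1 (-0.73 and 1.02 in AT-EAE) and Col5a3 (1.08 and 0.98 in AT-EAE) fall outside the dotted lines on both.

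Among the small proteoglycans, which sit on collagen fibrils, decorin stood out on AT-EAE array 1. Dcn was at -0.92 on AT-EAE array 1, against -0.06 and -0.46 on control arrays 1 and 2, from 1 spot, and had no value on AT-EAE array 2. On that array 37 of 7398 measured genes lay as far from the median. Bgn, the biglycan gene, was at -0.31 and -0.37 on AT-EAE arrays 1 and 2, against -0.20 and -0.03 on control arrays 1 and 2. The value on AT-EAE array 2 came from 1 of its 3 spots. That spot read -0.03 and -0.37 on AT-EAE arrays 1 and 2, against -0.12 and -0.14 on control arrays 1 and 2, so that on the same spot the sizes in the groups overlapped. Lum, the lumican gene, was at 0.11 and -0.51 on AT-EAE arrays 1 and 2, against -0.02 and 0.14 on control arrays 1 and 2, from the 1 of its 2 spots that had values. On AT-EAE array 2, with its wide spread, 13.8% of genes lay as far from the median as Lum. Fmod, the fibromodulin gene, averaged -0.38 on AT-EAE array 1, against -0.18 and -0.38 on control arrays 1 and 2. Its 2 spots disagreed, at 0.20 and -0.97 on AT-EAE array 1, at 0.10 and -0.45 on control array 1 and at 0.11 and -0.87 on control array 2. The mean of Fmod therefore describes neither spot.

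**Figure D3:**
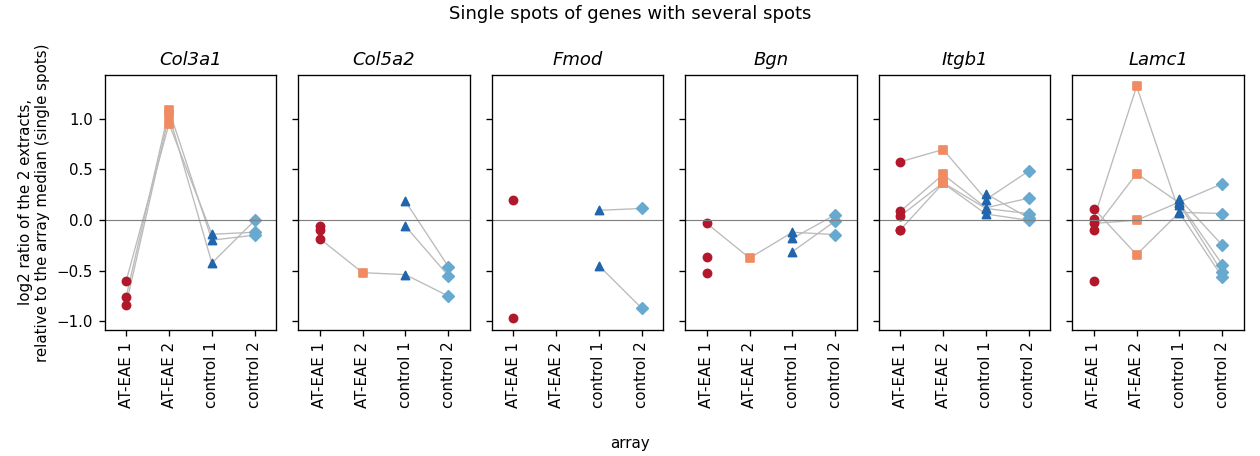
Log2 ratios of single spots relative to the array median (y axis) on the 4 arrays (x axis) for 6 genes with several spots, where a grey line joins the values of 1 spot on neighbouring arrays. The 3 spots of Col3a1 lie together on each array, while the 2 spots of Fmod and the spots of Lamc1 lie apart.

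Counted per array, genes of the set at least 0.5 from the array median were few. On AT-EAE array 1, Col5a3 was above by that amount, 1 of 43 measured genes, beside 0.581% of all genes. Dcn, Col3a1 and Itga6 were below, 3 of 43, beside 2.91% of all genes. On AT-EAE array 2, Col3a1 and Col5a3 were above, 2 of 36 measured genes, beside 7.75% of all genes. Col9a1, Col5a2 and Lum were below, 3 of 36, beside 7% of all genes. On control array 1, 0 of 49 measured genes passed in either direction, beside 0.771% of all genes above and 2.02% below. On control array 2, 0 of 43 were above, beside 1.28% of all genes, and Itga5 and Col5a2 were below, 2 of 43, beside 4.51%. The shares of the set on AT-EAE array 2 and on control array 2 were near those of all genes, so these counts are no result about the set. Those on AT-EAE array 1 rest on few genes, of which Dcn and Col5a3 had 1 spot each and Itga6 passed through 1 spot at -0.94. The lack of such genes on control array 1 stands beside small shares of all genes. Neither is read as a result about the set. The members nearest to the threshold on AT-EAE array 1 were Itga6 at a distance of 0.54 inside and Fmod at 0.38 outside. On AT-EAE array 2 they were Lum at 0.51 inside and Itgb1 at 0.47 outside.

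**Figure D4:**
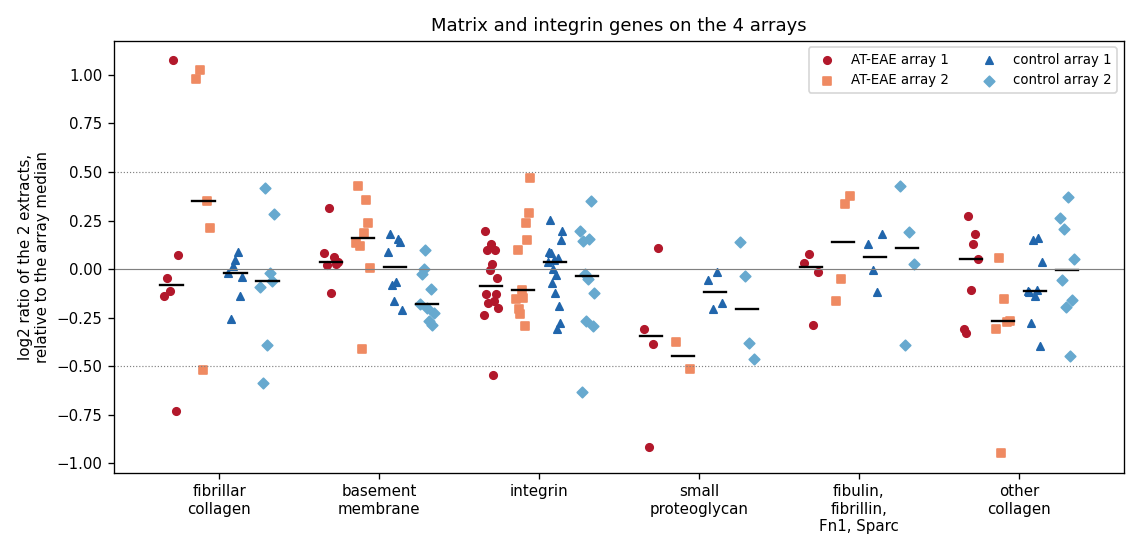
Log2 ratio between the 2 extracts of each array, relative to the array median (y axis), for each measured gene of 6 classes, with 1 point per gene, a black bar at the class median and dotted lines at 0.5 and -0.5. Fibrillar collagens span from -0.73 to 1.08 on AT-EAE array 1 and from -0.52 to 1.02 on AT-EAE array 2. No basement membrane gene, of 7 to 9 measured per array, crosses a dotted line. On AT-EAE array 2, where the most genes cross, 7.75% of all genes lie above the upper line and another 7% below the lower line.

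Basement membrane genes stayed within 0.5 of the array median wherever they were measured. They ranged from -0.12 to 0.31 on AT-EAE array 1 (7 of 15 genes) and from -0.41 to 0.43 on AT-EAE array 2 (8 of 15), against -0.21 to 0.18 on control array 1 (8 of 15) and -0.29 to 0.10 on control array 2 (9 of 15). Their medians were 0.04 and 0.16 on AT-EAE arrays 1 and 2, against 0.01 and -0.18 on control arrays 1 and 2. Of 8 genes measured on AT-EAE array 2, Nid1 alone lay below the median, as did 7 of 9 on control array 2. Of all genes, 0.581% were at least 0.5 above the median and 2.91% below on AT-EAE array 1. These shares were 7.75% and 7% on AT-EAE array 2, 0.771% and 2.02% on control array 1, and 1.28% and 4.51% on control array 2. With 7 to 9 genes measured per array, the lack of basement membrane genes past 0.5 is no result about the class.

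Col4a1, a chain of the collagen IV network of all basement membranes, was at 0.07 and 0.43 on AT-EAE arrays 1 and 2, against 0.09 and -0.27 on control arrays 1 and 2. Its partner Col4a2 was at 0.24 on AT-EAE array 2, against -0.16 and -0.10 on control arrays 1 and 2. By these means, the collagen IV genes lay on the same side of the median on AT-EAE array 2 and on control array 2, and on different sides on control array 1. The 2 Col4a1 spots disagreed, at 0.22 and -0.08 on AT-EAE array 1 and at 0.19 and -0.02 on control array 1. Its value on AT-EAE array 2 came from 1 of them. The laminin gamma chain Lamc1, shared by most laminins, was at -0.12 and 0.36 on AT-EAE arrays 1 and 2, against 0.14 and -0.22 on control arrays 1 and 2. Its SD between spots was 0.28 and 0.72 on AT-EAE arrays 1 and 2, against 0.056 and 0.37 on control arrays 1 and 2, and 1 spot alone read 1.32 on AT-EAE array 2. The Lamc1 mean on AT-EAE array 2 was thus smaller than the disagreement between its spots.

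The laminin alpha chain Lama2, the form of muscle and of the glial border, was at 0.03 and 0.19 on AT-EAE arrays 1 and 2, against 0.15 and 0.10 on control arrays 1 and 2. Lamb1 was at 0.08 and 0.12 on AT-EAE arrays 1 and 2, against 0.18 and -0.18 on control arrays 1 and 2. Lamc3 was at 0.02 and 0.13 on AT-EAE arrays 1 and 2, against -0.21 and -0.02 on control arrays 1 and 2. Sizes in the groups overlapped for Lama2 and Lamc3, while by the means both Lamb1 sizes in AT-EAE were below both in control. The Lamb1 means, however, rest on different spots from array to array. The 1 Lamb1 spot with values on every array read -0.08 and 0.05 on AT-EAE arrays 1 and 2. That spot read 0.28 and -0.03 on control arrays 1 and 2, so that on the same spot the sizes overlapped. Lama5, a major laminin chain of vessels, was at 0.31 on AT-EAE array 1, the highest of its class there, against -0.08 and 0.00060 on control arrays 1 and 2. Nid1, which links laminin to collagen IV, was at -0.41 on AT-EAE array 2, against -0.06 and -0.29 on control arrays 1 and 2. The AT-EAE value came from 1 of its 4 spots, which read 0.04 and -0.46 on control arrays 1 and 2. Lamb2 was measured on control array 2 alone, at -0.20.

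Integrin subunits lay about as far from the array median as all genes did. Their median absolute ratio was 0.13 and 0.20 on AT-EAE arrays 1 and 2, against 0.09 and 0.18 on control arrays 1 and 2. Over all genes it was 0.12 and 0.22 on AT-EAE arrays 1 and 2, against 0.12 and 0.15 on control arrays 1 and 2. The signed medians of integrin subunits were -0.09 and -0.11 on AT-EAE arrays 1 and 2, against 0.04 and -0.04 on control arrays 1 and 2. They ranged from -0.54 to 0.20 on AT-EAE array 1 (14 of 16 genes) and from -0.29 to 0.47 on AT-EAE array 2 (11 of 16), against -0.31 to 0.25 on control array 1 (15 of 16) and -0.63 to 0.35 on control array 2 (10 of 16).

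Itgb1, the beta subunit shared by most receptors for collagen, laminin and fibronectin, was at 0.10 and 0.47 on AT-EAE arrays 1 and 2, against 0.15 and 0.16 on control arrays 1 and 2. The size on AT-EAE array 2 was the largest of the 4, and the SD between its spots was 0.28 and 0.16 on AT-EAE arrays 1 and 2, against 0.079 and 0.20 on control arrays 1 and 2. Itga6, an alpha subunit of laminin receptors, was at -0.54 and 0.10 on AT-EAE arrays 1 and 2, against -0.03 and -0.29 on control arrays 1 and 2. The value on AT-EAE array 1 averaged spots at -0.15 and -0.94, so that 1 spot carried it past 0.5. Itga5, the alpha subunit of the fibronectin receptor, was at -0.20 and -0.11 on AT-EAE arrays 1 and 2, against 0.0028 and -0.63 on control arrays 1 and 2. The low value on control array 2 came from spots at -1.08 and -0.18. Neither gene had agreeing spots where it crossed 0.5.

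The other laminin-binding subunits, Itga3 and Itga7, lay between -0.16 and 0.24 on every array. Itga8, which pairs with Itgb1, lay between -0.05 and 0.25. Among subunits that leukocytes carry, Itgb2 was at -0.24 and 0.29 on AT-EAE arrays 1 and 2, against 0.04 on control array 1, with no value on control array 2. Its 2 spots agreed, at -0.24 and -0.23 on AT-EAE array 1 and at 0.36 and 0.21 on AT-EAE array 2. Itgam, the alpha subunit of macrophages and microglia that pairs with Itgb2, was at -0.13 and -0.20 on AT-EAE arrays 1 and 2, against -0.28 and -0.02 on control arrays 1 and 2. Its ranges in the groups overlapped. Itga4, the subunit by which lymphocytes bind vessel walls, was at -0.13 and -0.23 on AT-EAE arrays 1 and 2, against -0.31 and 0.15 on control arrays 1 and 2. Itgax and Itgb7 had values on array 1 of each group alone, at -0.17 and 0.02 in AT-EAE, against 0.05 and -0.19 in control. The other subunits measured, Itgae, Itga9, Itgb3 and Itgb5, stayed between -0.29 and 0.35.

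Of the glycoprotein genes, Fn1 was at -0.29 and 0.33 on AT-EAE arrays 1 and 2, against 0.13 and -0.39 on control arrays 1 and 2. Its sizes in the groups overlapped, and its spots on AT-EAE array 2 read 0.71 and -0.05. Sparc was at 0.08 and 0.38 on AT-EAE arrays 1 and 2, against 0.18 and 0.19 on control arrays 1 and 2. Fbn2 lay between -0.16 and 0.03, and Fbln7 between -0.05 and 0.43. Among other collagens, Col9a1, a fibril-associated collagen of cartilage, was at 0.18 and -0.95 on AT-EAE arrays 1 and 2, against -0.40 and -0.45 on control arrays 1 and 2, from 1 spot. No other of the 12 other collagens reached 0.5 on any array, and 1.42% of genes lay as far on AT-EAE array 2. Col14a1, which binds collagen fibrils, was at -0.31 and -0.27 on AT-EAE arrays 1 and 2, against -0.28 and -0.19 on control arrays 1 and 2. The type VI collagen genes Col6a1, Col6a3 and Col6a4 lay between -0.33 and 0.37. Col22a1, Col9a3, Col23a1 and Col8a2 stayed between -0.27 and 0.27 where they had values.

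Sizes of ratio were next compared between the groups. The median absolute ratio over measured genes of the set was 0.13 and 0.25 on AT-EAE arrays 1 and 2, against 0.12 and 0.19 on control arrays 1 and 2. The means were 0.19 ± 0.087 in AT-EAE and 0.16 ± 0.050 in control (SD, n = 2 arrays each), and the difference of 0.033 was smaller than either SD (2-sided exact permutation p = 0.667). Over all genes the same measure was 0.17 ± 0.076 in AT-EAE and 0.14 ± 0.025 in control (SD, n = 2 arrays each). The difference for the set turned to -0.028 without AT-EAE array 2, to -0.0018 without control array 1 and to -0.020 after division by the MAD-based SD of each array.

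Of the 31 genes with values on all 4 arrays, 19 had a larger mean absolute ratio in AT-EAE (61.3%), as had 60.6% of all 5429 such genes. Within classes, 3 of 5 fibrillar collagens, 2 of 5 basement membrane genes and 5 of 9 integrins were larger in AT-EAE. Col5a3 had the largest excess, with a mean absolute ratio of 1.03 in AT-EAE and 0.23 in control. Col3a1 followed, at 0.88 in AT-EAE and 0.17 in control, and then Lum, Bgn and Col1a2. Lum was at 0.31 in AT-EAE and 0.078 in control, Bgn at 0.34 in AT-EAE and 0.12 in control, and Col1a2 at 0.25 in AT-EAE and 0.040 in control. At the other end were Fbln7, at 0.041 in AT-EAE and 0.22 in control, and Itga5, at 0.15 in AT-EAE and 0.32 in control. The fibrillar collagens Col11a1, at 0.13 in AT-EAE and 0.24 in control, and Col5a2, at 0.32 in AT-EAE and 0.36 in control, were also on that side. The means of Lum and Col5a3 rest on 1 spot, and those of Col1a2, Col11a1 and Itga5 on spots that disagreed.

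A fit across all 5429 genes with values on every array (limma, with Benjamini-Hochberg adjustment) tested whether a ratio was shared by the 4 arrays. It takes the ratios of all arrays to run the same way, which the sources do not settle, and its calls hold only under that reading. It called 1 gene overall (0.0184%) and 0 of the 31 genes of the set, of which 5 had an unadjusted p under 0.05. Col5a3 came closest, with a mean ratio of 0.61 (SE 0.11, limma adjusted p = 0.089, above the array median on 3 of 4 arrays). Leaving out an array leaves 1 array in its group, which is then assumed to vary like the other group. Without AT-EAE array 1 the fit called Col3a1, Col5a3 and Col9a1, beside 227 of 5481 genes overall. Without AT-EAE array 2 it called Col5a3 and Dcn, beside 58 of 7094 genes, and without control array 1 it called Col5a3, beside 18 of 5442. With genes measured on at least 3 arrays, Col5a3 was called, beside 36 of 7229 genes. The call of Col5a3 therefore depended on which arrays and genes entered. Under the same reading, the ratio in AT-EAE minus that in control, which again is no difference in level, was called for 1 gene overall (0.0184%) and for 0 of 31 genes of the set, of which 1 had an unadjusted p under 0.05. Col5a3 was that gene, at a difference of 0.84 (SE 0.21, limma adjusted p = 0.997). Without AT-EAE array 1, Col3a1 was called for this difference, beside 78 of 5481 genes in all, with the spread taken from the 2 control arrays alone.

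Other genes of matrix turnover, taken from lists of enzymes, proteases, glycoproteins, receptors and growth factor signalling, were set beside the set on the same scale. On AT-EAE array 1, 0 of 12 collagen processing genes, 0 of 9 proteases and inhibitors, 0 of 12 other glycoproteins and 0 of 16 matrix receptor and focal adhesion genes were at least 0.5 from the median. The transforming growth factor beta mediator Smad3 was below, at -0.67, 1 of 10 in its list. Of all genes there, 2.91% were below and 0.581% above by that amount. The lists held genes above and none below on AT-EAE array 2. They were P4ha1 at 0.63 and Plod3 at 0.61, which hydroxylate collagen (2 of 11), the dystroglycan gene Dag1 at 0.75, Cd47 at 0.62 and the hyaluronan receptor gene Cd44 at 0.56 (3 of 14), and the receptor genes Tgfbr2 at 0.86 and Tgfbr3 at 0.69 (2 of 6). None of 4 measured proteases and inhibitors and none of 9 other glycoproteins passed there. Beside these, 7.75% of all genes were above by that amount and 7% were below.

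On control array 1, the collagen hydroxylase subunit gene P4hb was at -0.61, 1 of 12, and the glycoprotein gene Sparcl1 at 0.57, 1 of 15, beside 2.02% of all genes below and 0.771% above. On control array 2, the adhesion genes Lims1, Ddr2 and Sdc3 were at -0.73, -0.53 and -0.52, 3 of 19, and Ccn1 was at -0.62, 1 of 11, beside 4.51% of all genes below and 1.28% above. Medians of the receptor and focal adhesion list were -0.13 and 0.15 on AT-EAE arrays 1 and 2, against 0.02 and -0.21 on control arrays 1 and 2.

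On AT-EAE array 1, 3 of 5 measured macrophage and leukocyte markers were at least 0.5 below the median, beside 2.91% of all genes. Of meningeal and perivascular fibroblast markers, 1 of 9 was below. Of skeletal muscle markers, 1 of 2 was above, beside 0.581% of all genes. The pericyte, endothelial, Schwann cell and spinal cord lists had 0 past 0.5 on that array. Of 11 macrophage and leukocyte markers 8 were on the array, with 5 and 4 measured on AT-EAE arrays 1 and 2, and 4 and 5 on control arrays 1 and 2. Their median was -0.56 and 0.06 on AT-EAE arrays 1 and 2, against 0.16 and 0.01 on control arrays 1 and 2. On AT-EAE array 1 they ranged from Lyz2 at -1.02 to Tyrobp at -0.06, with Cd68 at -0.77 and Fcgr3 at -0.56. On AT-EAE array 2, Cd14 was at 0.67, 1 of 4 measured, beside 7.75% of all genes at least 0.5 above, and the others were between -0.15 and 0.09. Ptprc and Cd4 had no value on any array. Of 13 meningeal and perivascular fibroblast markers 10 were on the array, with a median of -0.15 on both AT-EAE arrays, against -0.04 and -0.13 on control arrays 1 and 2. Serping1, the furthest of these on AT-EAE array 1, was at -0.73 and 0.49 on AT-EAE arrays 1 and 2, against 0.33 and -0.12 on control arrays 1 and 2. The other markers measured ranged from -0.37 to 0.08 on AT-EAE array 1 and from -0.30 to 0.45 on AT-EAE array 2. On control array 1 Aldh1a2 was at -0.89 and Ptgds at -0.67, 2 of 10 measured, beside 2.02% of all genes at least 0.5 below. The part of these cell types in the matrix ratios was not tested.

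By list medians, endothelial and pericyte markers lay nearer to the array median than macrophage and fibroblast markers on AT-EAE array 1. On AT-EAE array 2 they lay further from it. Of 10 endothelial markers 7 were on the array, with medians of -0.03 and 0.17 on AT-EAE arrays 1 and 2, against 0.04 and 0.06 on control arrays 1 and 2. Tek at -0.56 on control array 2 was the 1 endothelial marker past 0.5, 1 of 6 measured there, beside 4.51% of all genes below. The pericyte markers Pdgfrb and Rgs5 read 0.08 and -0.10 on AT-EAE array 1, with 0.49 and 0.17 for AT-EAE array 2, against 0.21 and -0.11 on control array 1 and 0.03 and -0.49 on control array 2. Cnn1, also on that list, was measured in control cord alone, at 0.33 and -0.02 on control arrays 1 and 2. Medians of the pericyte list were -0.01 and 0.33 on AT-EAE arrays 1 and 2, against 0.21 and -0.02 on control arrays 1 and 2. Of the Schwann cell list 2 of 7 markers were on the array, of cartilage and bone 1 of 9 (Sox9, measured on control array 1 alone) and of skeletal muscle 3 of 7. Of the muscle genes, Mylpf was at -0.21 and -0.45 on AT-EAE arrays 1 and 2, against 0.46 and 0.24 on control arrays 1 and 2. Ttn was at 0.53 and 0.07 on AT-EAE arrays 1 and 2, against 0.25 and 0.32 on control arrays 1 and 2. The part of these tissues in the matrix ratios was not tested.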

How the data were processed

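The deposited values of the 4 2-colour cDNA arrays were taken as log2 ratios of their normalized channels, which per the labels were compared slide by slide. Base, numerator, background correction, spot filter, normalization and software: none is given in the sources used here. The labels also mention averaged ratios of AT-EAE to control, which were not analysed here. Each array had 28704 spots, of which 18511 were assigned to 1 gene, 937 to several and 9256 to none. Spots of several genes were not used, among them 11 that name a gene of the set. All columns belonged to the 4 arrays, and columns of no sample numbered 0. The number of arrays limits the precision.

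Spots with a value were averaged per gene, and the array's median over genes was subtracted. Group values were compared by 2-sided exact permutation over the 6 ways to divide the 4 arrays, and genes by limma with Benjamini-Hochberg adjustment at 0.05, whose script was tested on simulated data. The rule for named genes took fibrillar collagens and small proteoglycans with values on at least 3 arrays, every member at least 0.5 from the array median, the highest and lowest member of each class on each array, laminins and integrin subunits with values on all 4 arrays, and genes of the other lists at least 0.5 from the median. Other genes, such as Col27a1, Col4a2, Lama4, Lamb2, Col14a1, Itgb2, Itgax, Itgb7, Tyrobp, Pdgfrb, Rgs5, Sox9, Mylpf and the cord markers, were named after their values were seen. Members and lists were chosen with earlier results of these data known. Nothing says whether extracts came from separate experiments, so p-values measure the spread between these arrays, which may be technical. Python 3.11.15 with numpy 2.4.6, pandas 2.3.3 and matplotlib 3.10.9 and R 4.3.3 with limma 3.58.1 were used. Chromosome positions and promoter sequences are from RefSeq on GRCm38.p6, where all 62 gene identifiers were found.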

Additional observations from a re-analysis of the deposited data

How the results depend on the processing

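Of the 12 class medians (fibrillar collagen, basement membrane and integrin on 4 arrays), 39 of 48 alternative values moved by less than the SD between arrays of the group and 9 by more. That SD is of signed medians and takes the arrays of a group to run the same way. The sources do not settle this, so the 39 and 9 hold only under that reading. With genes of at least 2 spots, the fibrillar median was 0.69 on AT-EAE array 2 and -0.24 on control array 2, and the integrin median -0.19 and 0.29 on AT-EAE arrays 1 and 2 and -0.12 on control array 2. With genes on all 4 arrays, the fibrillar median was -0.091 on control array 2 and the integrin median -0.0061 on AT-EAE array 1. The integrin median was -0.03 on AT-EAE array 1 with the median over spots and 0.0096 on AT-EAE array 2 with the mean over genes. Leaving out genes matched by symbol alone cannot change these medians. At a distance of at least 1, the genes past the threshold were 1, 1, 0 and 0 on AT-EAE arrays 1 and 2 and control arrays 1 and 2, and 0 on both AT-EAE arrays. At 2 MAD-based SDs, they were 5 and 3 on AT-EAE arrays 1 and 2, against 1 and 3 on control arrays 1 and 2. At that setting 2 passed on both AT-EAE arrays and 0 on both control arrays. The alternatives for both arrays of a group were chosen after seeing the data. The difference of median absolute ratio ranged from -0.028 to 0.095 with an array left out and was -0.020 after division by the MAD-based SD. The share of genes with a value kept its direction in the alternatives run, from -16.1 to -4.84 percentage points with an array left out. The genes called for a shared ratio numbered 0 to 3 with an array left out and 1 with at least 3 arrays, and those called for the AT-EAE minus control ratio 0 to 1. Over all genes, 1 was called for a shared ratio, but 36 with at least 3 arrays, 4 with array weights, 227 and 58 without AT-EAE arrays 1 and 2, and 18 and 14 without control arrays 1 and 2. For the AT-EAE minus control ratio 1 was called, but 6 with at least 3 arrays, 78 and 11 without AT-EAE arrays 1 and 2, and 13 and 4 without control arrays 1 and 2. The causes were not tested. With the replicate number as a block, 0 genes of the set were called for that ratio, and 0 with crossed numbers, a pairing tried because deviations of equal numbers correlated at -0.29 over 5429 genes. Many genes rest on 1 spot of 1 array, which gives no error.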
